A study of Mus musculus with 21 samples.

Results

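Mouse OT1 CD8 T cells expanded for 5 days with interleukin-15 (IL-15) at 50 IU/mL were compared with OT1 CD8 T cells cultured for the same 5 days with no added cytokine. All cells of the 2 libraries with those titles were used, 5809 with IL-15 and 6112 without cytokine, together 11921 of the 106456 cells in the series' 21 libraries. OT1 cells carry a transgenic T-cell receptor for an ovalbumin peptide. In both cultures naive OT1 CD8+ cells were stimulated on day 0 with beads carrying anti-CD3 and anti-CD28 antibodies, so bead activation was shared and the cytokine was the labelled difference. The other cultures of the series received IL-2, an IL-2 variant named IL-2v, or IL-15 at 5 or 50 IU/mL for 3, 5 or 10 days. The labels gave no strain, age or number of mice, and 1 library stood for each condition, so the differences below have no replicate check and carry no p-value.

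IL-15 signals through a receptor made of the IL-2 receptor β chain (Il2rb) and the common γ chain (Il2rg), which it shares with IL-2, and is usually presented by the IL-15 receptor α chain (Il15ra). The receptor's kinases JAK1 and JAK3 phosphorylate STAT5, which enters the nucleus and switches on feedback inhibitors, survival genes and growth genes. In CD8 T cells IL-15 is best known for keeping memory cells alive and for slow homeostatic division.

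The groups follow the library titles. The treatment field of the IL-15 library names interleukin-16 at the same dose, and its extraction text describes sorted tumour-infiltrating cells, so both fields conflict with the title and the culture description. That of the IL-2 library at 50 IU/mL, used for a comparison at the end, names interleukin-3. The libraries held 23288848 and 25673180 unique molecular identifiers (UMIs, tags that mark single RNA molecules), with medians of 3617 and 3751 per cell with IL-15 and without cytokine. They shared 13 cell barcodes, and every pair of the 21 libraries shared between 1 and 19. All 8 CD8 T-cell genes were detected in both. On the CD4 T-cell list Cd4 had a UMI in 2 cells with IL-15 and 16 without. Its member Ctla4 had one in 33.5% of cells with IL-15 and 49.5% without, and made up most of that list's 120 and 200 CPM. Pecam1, on the stromal and endothelial list, was at 30.9 CPM with IL-15 and 46.6 without. Of 7 B-cell genes 3 were at 0 in both libraries, Ms4a1 and Pax5 among them, but Ighm had a UMI in 76.9% of cells with IL-15 and 74.2% without, Cd79b in 4.96% and 3.48%, and Ighd in 5.63% and 2.7%. The list summed to 485 and 410 CPM. Of the myeloid genes Lyz2 and Csf1r were at 0, while Cst3 had a UMI in 28.6% and 30.4% of cells and made up most of the list's 94.0 and 93.9 CPM. The IL-15 library had the highest share of Gm42418 and AY036118, transcripts that overlap ribosomal RNA, of all 21 libraries, 1.73% of UMIs against 0.651% without cytokine.

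Levels are a gene's UMIs summed over a library and scaled to equal library totals (CPM), and differences are on the log2(CPM + 1) scale, which understates the change of low genes. Of 5673 genes at 20 CPM or more in either library, 330 (5.82%) were at least 2-fold higher with IL-15 and 108 (1.9%) at least 2-fold lower, and the median difference was 0.007. Those 2 shares are the ones to set beside the list counts of this comparison below. With Gm42418 and AY036118 left out of the totals, an alternative chosen after seeing the data, the counts were 343 and 103. Without cells that held at least 2 markers of other lineages, or Cd4 and no Cd8 gene, which kept 3438 and 3773 cells, they were 302 and 112. Those markers include Ighm, Cst3, Pecam1 and Eomes, which were common in both libraries or higher with IL-15. Ighm alone had a UMI in 76.9% and 74.2% of cells, and Eomes in 10.1% and 3.14%. The filter therefore does not single out cells of other lineages. Genes at 100 CPM or more in the higher of the 2 libraries were ranked, so a ranked gene could be low in the other. The 10 largest gains included the glycolysis genes Aldoc and Pgk1 and the sterol genes Cyp51, Hmgcs1 and Fdps. The others were the survival gene Bcl2, the granule gene Gzmb, the proliferation gene Mki67, AA467197 and Prelid2. The 10 largest losses were in Id3, Ccl5, Ikzf2, Ltb, Il7r, Nfkbia, Slfn2, Mir142hg, Slamf6 and Btg1, among them a chemokine, a cytokine receptor and genes of resting T cells.

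**Figure D1:**
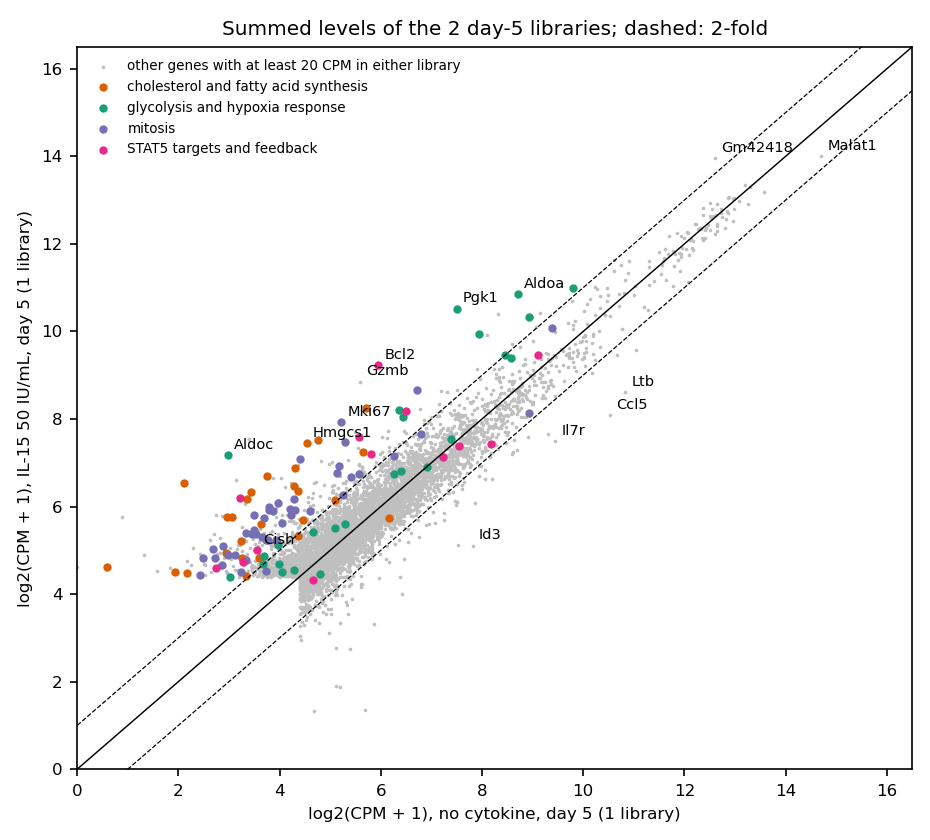
Level of each tested gene on day 5 as log2(CPM + 1), without cytokine (x axis) and with IL-15 at 50 IU/mL (y axis), 1 point per gene and 1 library per axis, with 4 gene lists in colour and dashed lines at a 2-fold difference. The 330 genes at least 2-fold higher with IL-15 lie above the upper dashed line and the 108 at least 2-fold lower lie below the other.

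The receptor chains did not move together. Il2rb was at 325 CPM with IL-15 and 142 without (log2 difference 1.19), and Il2ra, the α chain specific to IL-2, was at 111 and 34.0 (1.68). The other members were closer between the cultures. Il2rg had 280 CPM with IL-15 and 386 without, Il15ra 14.5 and 20.4, and Jak1 353 and 474. Stat5a was at 23.06 and 23.02, and Stat5b at 36.3 and 36.8. Il2ra and Il2rb were thus the 2 of 14 tested receptor and pathway genes that passed 2-fold, and none was 2-fold lower.

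STAT5 target and feedback genes were mostly higher: 8 of 13 tested were at least 2-fold higher and none 2-fold lower, with a median of 1.45 against 0.007 over all tested genes. With no filter on low levels 8 of 18 were higher, 1 was lower and the median was 0.81. Bcl2, which blocks the mitochondrial route to cell death, was at 600.2 CPM with IL-15 (exact Poisson 95% interval 590 to 610, counting error only) and 60.8 without (57.8 to 63.9), a 9.87-fold difference. Socs2, a feedback inhibitor of cytokine receptors, was at 72.4 and 8.26. Cish, another such inhibitor, was at 31.2 and 10.7. The kinases Pim1 and Pim2, which promote survival and growth, were at 291 against 89.5 and 190 against 46.4. Bcl2l1, which encodes BCL-XL, was at 23.2 and 5.65, and Myc, a driver of growth, at 146 and 55.1. The same direction did not extend to Mcl1 (171 with IL-15 and 290 without), Socs3 (19.1 and 24.2), Socs1 (140 and 149) or the D cyclin Ccnd3 (167 and 185). Part of Pim1, 14.5% of its exon length, overlaps Gm26885 on the opposite strand, and no source used here states strand-aware counting.

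Against 5.82% of all tested genes, 3 of 9 in the BCL2 family were at least 2-fold higher. They were Bcl2, Bcl2l1 and Bcl2l11, which encodes the death-promoting protein BIM and was at 94.5 CPM with IL-15 and 38.8 without. Bcl2l1 passed the filter on low levels only through the IL-15 library. Genes on both sides of the survival balance were therefore higher. Bcl2a1b was at 7.69 and 30.6, but near-identical gene copies make its count uncertain.

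The 250 bases upstream of the transcription start of Cish and Pim1 are shown because these feedback and survival genes had 2.92-fold and 3.25-fold higher levels with IL-15. The sequences are from RefSeq on GRCm38.p6, read 5′ to 3′ on the strand of the gene, for Cish at chr9:107296409-107296658 (+ strand) and for Pim1 at chr17:29490535-29490784 (+ strand).
Cish: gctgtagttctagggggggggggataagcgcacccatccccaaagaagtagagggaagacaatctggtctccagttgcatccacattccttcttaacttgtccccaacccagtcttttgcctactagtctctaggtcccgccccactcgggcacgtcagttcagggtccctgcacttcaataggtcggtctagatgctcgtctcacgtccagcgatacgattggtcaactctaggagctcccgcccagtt
Pim1: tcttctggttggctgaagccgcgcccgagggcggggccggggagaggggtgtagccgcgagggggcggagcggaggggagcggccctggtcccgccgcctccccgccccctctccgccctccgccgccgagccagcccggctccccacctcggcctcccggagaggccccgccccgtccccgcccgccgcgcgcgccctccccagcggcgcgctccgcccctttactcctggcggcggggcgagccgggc
The STAT consensus TTCNNNGAA was searched on both strands and matched neither sequence. It occurred in 8.13% of 27025 genes' windows of this length, in 7.36% of the 4579 tested genes that had a window, and in 8.14% of the 258 genes at least 2-fold higher that had one.

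Cholesterol and fatty acid synthesis genes had the highest median difference of the 29 lists. At least 2-fold higher levels were found for 25 of 27 tested genes, with a median of 2.18, and none was 2-fold lower. Some, such as Scd1 and Acaca, passed the filter only through the IL-15 library. With no filter on low levels 27 of 30 were higher and the median was 2.10. Scd1, a fatty acid desaturase, was at 23.5 CPM with IL-15 and at 0.506, or 13 UMIs, without. Its relative Scd2 was at 302 and 51.3. The gain ran along the sterol pathway, from Hmgcs1 (174 and 22.1), which makes HMG-CoA, through Idi1 (79.6 and 9.74), Fdps (182 and 26.1) and Sqle (71.2 and 9.19) to Cyp51 (102 and 12.5). The feedback regulator Insig1 was at 53.2 and 7.32, and the transcription factors Srebf2 and Srebf1 at 151 against 49.3 and 35.3 against 14.5. On the fatty acid branch Fasn was at 81.2 and 19.6, Acly at 69.6 and 33.1, and Acaca at 20.2 and 9.15. Acly and Acaca were under 2-fold with TMM scaling (0.96 and 0.98), without cells with markers of other lineages, with a pseudocount of 10 and in cells lacking both Mki67 and Top2a. Acly was also under it with at most 5% mitochondrial UMIs, with the mean of single-cell CPM and with cells thinned to 2000 UMIs. Sc5d, Dhcr7 and Srebf1 were under it with that pseudocount and in cells lacking both markers. As reported, the other 2 of the 27 were Pmvk (39.4 and 19.7), just under 2-fold, and Ebp (52.7 and 70.7), which was lower with IL-15. None of 13 tested fatty acid oxidation genes reached 2-fold in either direction, and their median was -0.05. That count is near the shares of all tested genes, 5.82% higher and 1.9% lower.

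Hmgcs1 had one of the 10 largest gains among genes at 100 CPM or more in the higher library. Its upstream window holds a sterol response element match, so it is shown here. The gene and motif were chosen after the values were seen. The window lies at chr13:119690101-119690350 (+ strand, GRCm38.p6, RefSeq), and the capitals mark TCACNCCAC, 137 bases before the start.
Hmgcs1: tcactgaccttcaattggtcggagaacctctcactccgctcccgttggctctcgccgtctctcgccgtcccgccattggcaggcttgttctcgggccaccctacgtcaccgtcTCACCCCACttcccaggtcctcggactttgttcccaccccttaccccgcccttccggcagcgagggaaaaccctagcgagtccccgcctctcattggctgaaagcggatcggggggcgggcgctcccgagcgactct
This motif, searched on both strands, occurred in 1.22% of all 27025 windows and in 1.16% of those of the genes at least 2-fold higher. Of the 18 tested sterol list genes with a window 1 held it (5.56%), Hmgcs1 itself. The Hmgcs1 transcript overlaps Gm48342 on the opposite strand over 12.1% of its exon length.

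Counted per cell, the sterol gain was broad. In cells thinned to 2000 UMIs, the median cell held 3 UMIs of the list with IL-15 and 1 without, and 9.52% against 40.7% of cells held none. Thinning left out 219 and 109 shallower cells. Hmgcs1 itself was detected in 22.7% of thinned cells with IL-15 and 3.95% without (36.3% and 8.49% before thinning).

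**Figure D2:**
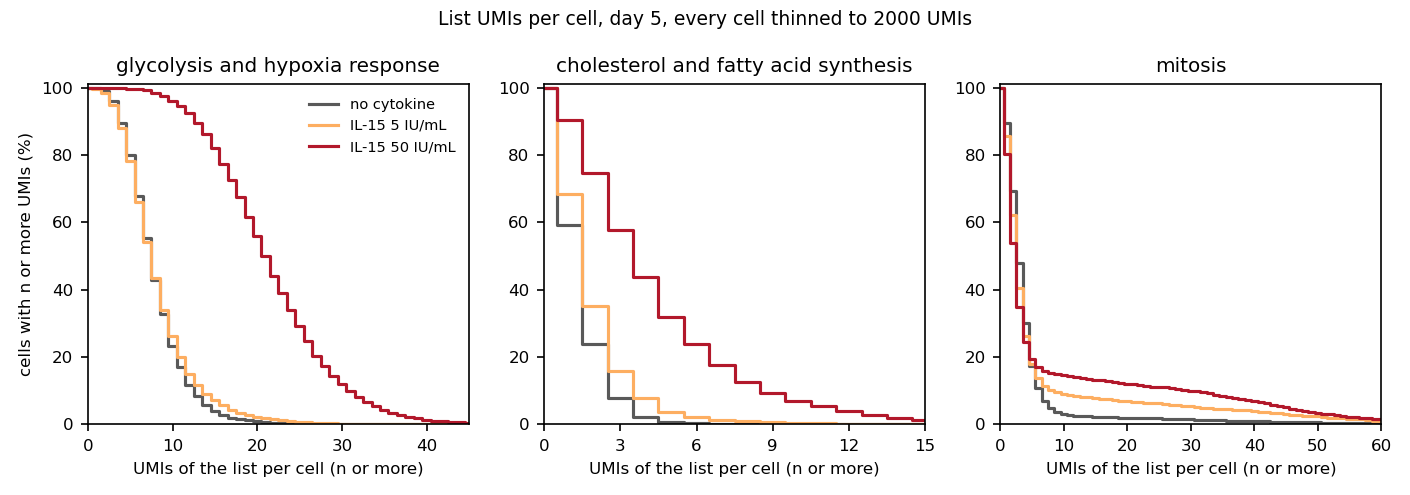
Share of cells (y axis, percent) that hold at least the number of UMIs of a gene list given on the x axis, for glycolysis, sterol and mitosis genes in the day 5 libraries without cytokine and with IL-15 at 5 and 50 IU/mL, every cell thinned to 2000 UMIs. The glycolysis curve at 50 IU/mL (median 20 UMIs) lies far to the right of the other 2 (median 7), and the mitosis curves cross at low counts.

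Glycolysis genes were at least 2-fold higher for 13 of 25 tested, none was 2-fold lower, and the median was 1.01. Without the filter on low levels 16 of 34 were higher and the median was 0.80. Aldoc, an aldolase, was at 144 CPM with IL-15 and 6.89 without. This was the largest difference (20.9-fold) among genes at 100 CPM or more in the higher library. Pgk1, which makes ATP in the pathway's second part, was at 1469 (interval 1450 to 1480) and 179.6 (174 to 185). Aldoa was at 1839 and 419.0, Gapdh at 2031 and 894.7, Pkm at 990 and 245, and Tpi1 at 293 and 81.6. Hk2, which traps glucose in the cell, was low in both at 24.9 and 11.8, and Slc16a1, a lactate transporter, was at 33.8 and 14.6. Eno1 was at 264 and 85.2, but a near-identical copy, Eno1b, makes its count uncertain. Hif1a, the transcription factor of the hypoxia response, was lower with IL-15 at 173 against 218.

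The per-cell distributions had little overlap. With IL-15 the median thinned cell held 20 glycolysis UMIs and its 10th percentile was 12, which equalled the 90th percentile without cytokine, where the median was 7. Pgk1 was detected in 91.4% of thinned IL-15 cells and 27.1% of those without cytokine (96.6% and 45.6% before thinning). Aldoa was detected in 94.7% and 54.0%.

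Oxidative phosphorylation genes of the nucleus had a median of -0.22. None of 75 was at least 2-fold higher, against 5.82% of all tested genes, and 1 was at least 2-fold lower, near the 1.9% of all tested genes. The 1 gene was Ndufa4, a subunit of cytochrome c oxidase, at 138 CPM with IL-15 (134 to 143) and 283 without (276 to 289). AA467197, also named Nmes1 in RefSeq, is known as an NDUFA4-like protein that can take its place in that complex. It was at 186 CPM with IL-15 (181 to 192) and 9.54 without (8.39 to 10.8), a 19.5-fold gain. That was the second largest among genes at 100 CPM or more in the higher library. So the transcript of the alternative subunit was higher and that of the standard one lower, while the make-up of the complex was not tested. In thinned cells AA467197 was detected in 24.2% with IL-15 and 1.5% without. Naive cells had 0.379 CPM of AA467197 and 369 of Ndufa4. Ndufa4 sits near the 2-fold limit and was under it without cells over 2 times the median UMIs and with a pseudocount of 10.

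All 13 mitochondrially encoded genes were at or above their level without cytokine, with a median of 0.70, and 3 passed 2-fold: mt-Nd1 (3182 and 1556 CPM), mt-Nd3 (1367 and 566.1) and mt-Nd6 (128 and 31.6). Mitochondrial transcripts were 4.7% of UMIs with IL-15 and 3.86% without. With scaling by trimmed means (TMM) the log2 difference of mt-Nd1 was 0.94, under 2-fold. With cells limited to at most 5% mitochondrial UMIs it was 0.91. That limit selects cells on these same transcripts, so part of the smaller difference was fixed by selection. It kept 3495 of 5809 cells with IL-15 and 5305 of 6112 without.

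In the lists of amino acid supply and ribosome production most genes stayed under 2-fold, and those past it were higher with IL-15. Slc7a5, the large neutral amino acid transporter, was at 53.7 CPM with IL-15 and 6.23 without, and Slc7a1, a cationic amino acid transporter, at 53.6 and 14.3. Atf4, the transcription factor of the amino acid response, was at 124 and 46.4, and its targets Psat1 and Aldh18a1 were at 41.0 against 13.1 and 25.3 against 9.23. In all 6 of 19 tested genes of this list passed 2-fold, against 5.82% of all tested genes that were higher, and the median was 0.62. The list held 27 genes, and Slc7a5, Slc7a1, Psat1 and Aldh18a1 passed the 20 CPM filter only through the IL-15 library. The filter thus favoured genes that were higher with IL-15. Ribosome biogenesis genes had a median of 0.65 with 6 of 33 past 2-fold, among them Gnl3 (164 and 70.4) and Ncl (1104 and 533.7). Under TMM scaling 3 of the 6, Ncl, Nop56 and Noc2l, were under 2-fold.

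**Figure D3:**
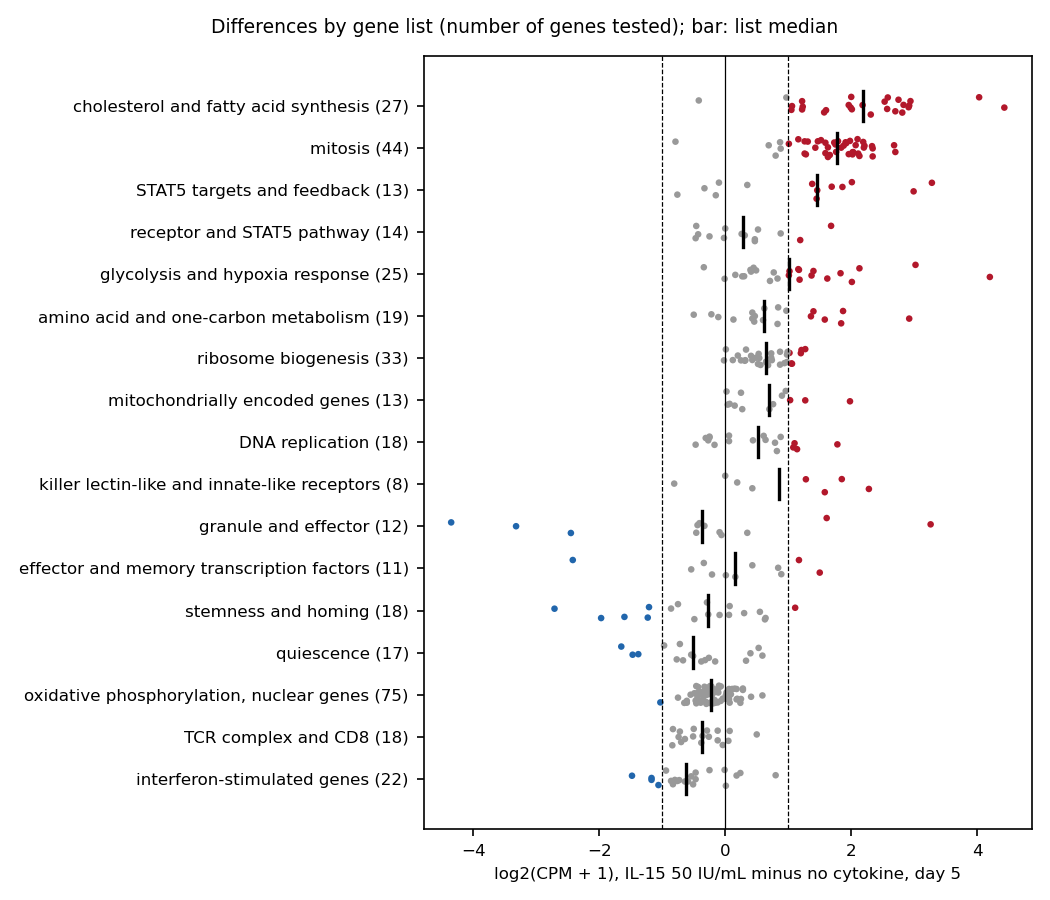
Log2 difference of each tested gene (x axis, IL-15 at 50 IU/mL minus no cytokine, day 5), 1 point per gene, grouped by gene list (y axis, with the number tested), a bar at the list's median and dashed lines at 2-fold. The sterol list (median 2.18) and the mitosis list (1.78) stand farthest to the right and the interferon list (-0.62) farthest to the left.

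Mitosis genes were at least 2-fold higher for 39 of 44 tested and none was 2-fold lower, with a median of 1.78. With no filter it was 49 of 55, with a median of 1.82. Mki67, a marker of cells outside the resting state, was at 242 CPM with IL-15 and 36.3 without. Top2a, which untangles chromosomes, was at 407 and 104, the centromere protein Cenpf at 135 and 20.2, and the kinase Cdk1 at 66.5 and 14.7. Smc4, a condensin subunit, ran the other way at a log2 difference of -0.79. DNA replication genes differed less. Against 5.82% of all tested genes, 4 of 18 were at least 2-fold higher, with a median of 0.53, and with no filter 8 of 41 and 0.30. Those 4 were Pcna (128 and 58.9), Rrm1 (44.6 and 19.6), Rrm2 (37.1 and 17.0) and Uhrf1 (27.0 and 7.17), while the helicase subunits Mcm5 (28.9 and 18.2) and Mcm2 (21.2 and 13.5) stayed under 2-fold. Rrm2 was under 2-fold with TMM scaling (0.99), without cells with markers of other lineages (0.94) and with a pseudocount of 10 (0.80), and Rrm1 with that pseudocount (0.88).

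The windows upstream of Mcm5 and Mcm2 are given because replication genes are classic targets of E2F factors. Capitals in Mcm5 mark first the STAT consensus, 239 bases before the start, and then the E2F site TTTGGCGC on the reverse strand, 149 bases before it, and the 2 do not overlap. Mcm2 held neither motif. Mcm5 lies at chr8:75109259-75109508 (+ strand) and Mcm2 at chr6:88898781-88899030 (- strand), both GRCm38.p6 from RefSeq.
Mcm5: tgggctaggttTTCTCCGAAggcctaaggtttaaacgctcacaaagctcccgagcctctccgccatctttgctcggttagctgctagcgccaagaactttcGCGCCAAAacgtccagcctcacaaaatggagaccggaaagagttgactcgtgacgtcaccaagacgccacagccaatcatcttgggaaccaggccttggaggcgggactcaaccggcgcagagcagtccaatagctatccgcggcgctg
Mcm2: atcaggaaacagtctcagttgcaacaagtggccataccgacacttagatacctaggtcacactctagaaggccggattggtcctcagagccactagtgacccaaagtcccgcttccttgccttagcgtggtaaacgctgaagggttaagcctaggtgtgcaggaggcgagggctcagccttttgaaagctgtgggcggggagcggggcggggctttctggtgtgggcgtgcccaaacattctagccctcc
The E2F letters searched were TTTGGCGC and TTTCCCGC on both strands. They occurred in 1.51% of all windows, in 3.58% of those of tested genes, in 5.04% of those of genes at least 2-fold higher, and in 4 of the 16 replication genes with a window (25%).

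The share of cells with a UMI of Mki67 or Top2a was 19.1% with IL-15 (exact Clopper-Pearson 95% interval 18.1 to 20.2) and 7.96% without (7.29 to 8.68) at 2000 UMIs per cell, and 24.6% and 13.8% before thinning. In naive cells it was 1.88%. The direction depended on how cycling was read. Counting cells with at least 3 UMIs of the whole mitosis list gave 34.8% with IL-15 and 47.9% without. Smc4 and Hmgb2, which encodes a chromatin protein, were common in cells with neither marker in the culture without cytokine. Cells without a Mki67 or Top2a UMI held 102 Smc4 and 98.5 Hmgb2 UMIs per 100 cells without cytokine, against 32.4 and 74.7 with IL-15. With those genes left out, the shares were 18.7% and 6.36%, and at 10 UMIs of the full list they were 14.5% and 3.12%. Both of these readings were chosen after seeing the data.

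Cells positive for Mki67 or Top2a held different amounts of mitosis list transcripts in the 2 cultures. The list includes both markers, so part of each positive cell's count was fixed by selection. The median positive cell, thinned to 2000 UMIs, held 31 UMIs of the mitosis list with IL-15 and 4 without, where the median of the other cells was 2. How many positive cells owed their UMI to free RNA was not tested. Within the IL-15 culture positive cells more often had sterol transcripts than the other cells, with Scd2 in 57.6% against 31.9% and Fdps in 41.8% against 21.6%. Bcl2 was seen in 58.2% of positive and 68.0% of other cells, and Gzmb in 47.8% and 50.9%. Without cytokine Fdps was in 5.86% of positive and 3.84% of other cells, and Scd2 in 7.11% and 9.09%.

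As the share of positive cells differed between the cultures, each gene list was compared separately in cells with and without a UMI of either marker. Among the 1431 and 846 positive cells before thinning 500 of 5944 tested genes were at least 2-fold higher with IL-15 (8.41%) and 118 lower (1.99%). Among the 4378 and 5266 negative cells 226 of 5524 were higher (4.09%) and 116 lower (2.1%). The sterol list kept a median of 1.83 in negative cells, with 20 of its 27 genes past 2-fold, and had 2.41 in positive cells. Glycolysis had 0.80 in negative and 1.03 in positive cells, and the STAT5 targets 1.45 and 1.32. Mitosis genes, by the way the cells were split, had 0.25 in negative and 1.39 in positive cells. Over the members that passed the filter in negative cells the median was -0.45, so its sign turned with the filter. DNA replication genes had -0.32 in negative and 0.35 in positive cells, and none of the 4 past 2-fold in all cells was so in negative cells. Bcl2 was at 639 against 61.5 CPM in negative cells and 516 against 57.5 in positive cells.

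**Figure D4:**
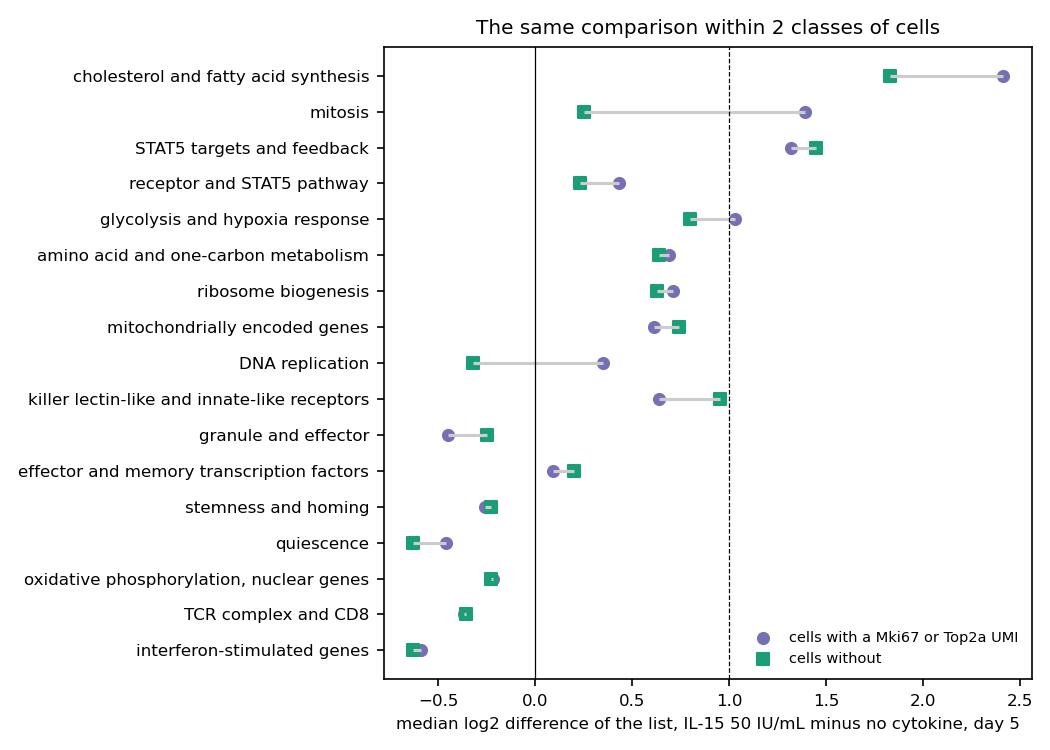
Median log2 difference of each gene list (x axis, IL-15 at 50 IU/mL minus no cytokine, day 5) in cells with and in cells without a UMI of Mki67 or Top2a, with 1 line per list on the y axis. The sterol list is at 2.41 and 1.83 and the STAT5 targets at 1.32 and 1.45, and the mitosis list is at 1.39 and 0.25, a value that is -0.45 over the members that passed the filter in cells without either marker.

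The granule and effector list had 2 of 12 tested genes past 2-fold upwards and 3 downwards (5.82% and 1.9% over all tested genes), and a median of -0.37. With no filter on low levels it was 3 and 6 of 23, with a median of -0.06. Gzmb, the granule protease granzyme B, was at 462 CPM with IL-15 (453 to 471) and 47.2 without (44.6 to 49.9), and at 6.498 in naive cells. In thinned cells it was detected in 50.3% with IL-15 and 4.88% without, against 0.649% in naive cells (67.3% and 8.43% in the day 5 libraries before thinning). Serpinb6b, of a family of protease inhibitors, was at 59.0 and 18.7. Other granule genes were close, such as Nkg7 (573 and 609), Srgn (487 and 509) and Gzma (16.53 and 20.99). The 3 genes at least 2-fold lower were chemokines: Ccl5 at 270.7 CPM against 1482, Ccl4 at 2.66 against 35.6, and Xcl1 at 1.55 against 50.9. Ccl5 was detected in 13.6% of thinned cells with IL-15 and 44.2% without.

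Of 8 tested killer lectin-like and innate-like receptor genes 4 were at least 2-fold higher, none was 2-fold lower, and the median was 0.86. Of these, 3 were chains of the IL-18 and IL-12 receptors, Il18rap at 45.4 CPM against 8.57, Il18r1 at 93.3 against 25.2 and Il12rb2 at 72.8 against 23.8. Il18rap passed the filter on low levels only through the IL-15 library, and 8 of the 17 listed genes were tested. For Il12rb2, 40% of the exon length overlaps Serbp1 on the opposite strand. The other was the activation antigen Cd44 (60.2 and 24.1). The members under 2-fold were Klrd1 (522 and 387), Klrk1 (51.4 and 44.8), Ly6c2, at 434 in both and uncertain for its near-identical copies, and Ly6a (594.5 and 1042). Eomes, a transcription factor of memory and effector CD8 cells that is also on the NK-cell list, was at 30.9 and 10.3, while the NK receptors Ncr1 and Klra8 were at 0. Klrb1c, another NK receptor, had a UMI in 18 cells with IL-15 and 0 without, and Tyrobp, a signalling adaptor of NK and myeloid cells, in 20 and 5. Eomes made up most of the NK list's summed 34.0 and 11.3 CPM. Ikzf2, which encodes Helios, was at 33.6 with IL-15 and 184 without.

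Of 18 tested genes linked to stemness and lymphoid homing 5 were at least 2-fold lower, against 1.9% of all tested genes, and 1 was higher, a share near the 5.82% of all tested genes. The median was -0.28. Il6ra, a receptor chain for IL-6, was the 1 gene at least 2-fold higher, at 22.8 CPM against 9.97. It was under 2-fold with cells limited to at most 5% mitochondrial UMIs (0.91) and with a pseudocount of 10 (0.71). Il7r, the receptor for the survival cytokine IL-7, was at 178 (173 to 184) and 699.8 (690 to 710), detected in 27.3% and 67.7%. Id3, a transcriptional inhibitor found in memory precursors, was at 33.4 and 224, and Ccr7, a homing receptor, at 113 and 267. Tcf7, which encodes the stemness factor TCF-1, was lower at 206 against 348 but under 2-fold. Lef1 (270 and 331), Klf2 (390 and 471) and Foxo1 (108 and 103) were near each other.

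The list of quiescence genes had a median of -0.51. None of 17 tested was at least 2-fold higher, against 5.82% of all tested genes, and 3 were at least 2-fold lower, against 1.9%. These were Btg1, a brake on proliferation (757.8 and 2106 CPM), Slfn2 (202 and 635), which holds T cells at rest, and Ypel3 (146 and 384). The cell cycle inhibitor Cdkn1b was at 100.3 and 197.5. A thinned cell held a median of 7 UMIs of this list with IL-15 and 12 without. The median was 8 in naive cells and 5 in both day 3 cultures, with IL-15 at 50 IU/mL and without cytokine. The IL-15 culture was thus nearer to naive cells than the culture without cytokine was. Interferon-stimulated genes had a median of -0.62, and 4 of 22 tested, Isg15, Irf7, Rtp4 and Isg20, were at least 2-fold lower, against the same 1.9%. With a pseudocount of 10 Irf7 (-0.89), Rtp4 (-0.88) and Isg20 (-0.77) were under 2-fold. Isg20 was also under it with at most 5% mitochondrial UMIs and in cells lacking both Mki67 and Top2a. The median thinned cell held 6 interferon list UMIs with IL-15, 9 without cytokine and 4 among naive cells. Summed CD8 T-cell marker levels were 4310 CPM with IL-15 and 6340 without, and none of 18 T-cell receptor complex genes passed 2-fold.

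IL-15 at 5 IU/mL was another culture on day 5, of 7105 cells. Between 5 and 50 IU/mL 116 of 5434 tested genes were at least 2-fold higher at the high dose (2.13%) and 13 lower (0.239%), with a median difference of 0.087. TMM scaling gave 78 and 23 and a median of -0.063. This comparison shares the 50 IU/mL library with the main one, so the levels are set side by side. Bcl2 had 60.8 CPM with no cytokine, 432 at 5 IU/mL and 600.2 at 50 IU/mL, so most of its gain was present at the low dose. Aldoa had 419.0, 430.2 and 1839, and Tpi1 had 81.6, 77.0 and 293. Both were higher in the high-dose library alone. Pgk1 (179.6, 328.3 and 1469), Scd2 (51.3, 87.4 and 302), Gzmb (47.2, 128 and 462) and AA467197 (9.54, 27.5 and 186) were intermediate at 5 IU/mL. Losses were graded in the same order, with Il7r at 699.8, 380 and 178, Id3 at 224, 123 and 33.4 and Ccl5 at 1482, 602 and 270.7. Ndufa4 was at 283, 265 and 138.

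By list, 19 of 27 sterol genes (median 1.55) and 11 of 25 glycolysis genes (0.92) were at least 2-fold higher at 50 than at 5 IU/mL. No mitosis gene of 44 was (0.47). Cells with a Mki67 or Top2a UMI were 7.96%, 14.9% and 19.1% with no cytokine, 5 and 50 IU/mL. The median glycolysis count per thinned cell was 7, 7 and 20 UMIs, and cells with no sterol UMI were 40.7%, 31.6% and 9.52%. The share of thinned cells with Bcl2 was 10.4%, 53.5% and 66.1%, and that with Aldoa 54.0%, 49.9% and 94.7%. Most of the Bcl2 difference was thus present at 5 IU/mL and most of the glycolysis difference at 50 IU/mL. For cycling it depended on the measure: Mki67 was detected in 2.05%, 7.33% and 13.5% of thinned cells. The median mitosis list count, both markers included, of cells positive for Mki67 or Top2a was 4, 11 and 31 UMIs.

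**Figure D5:**
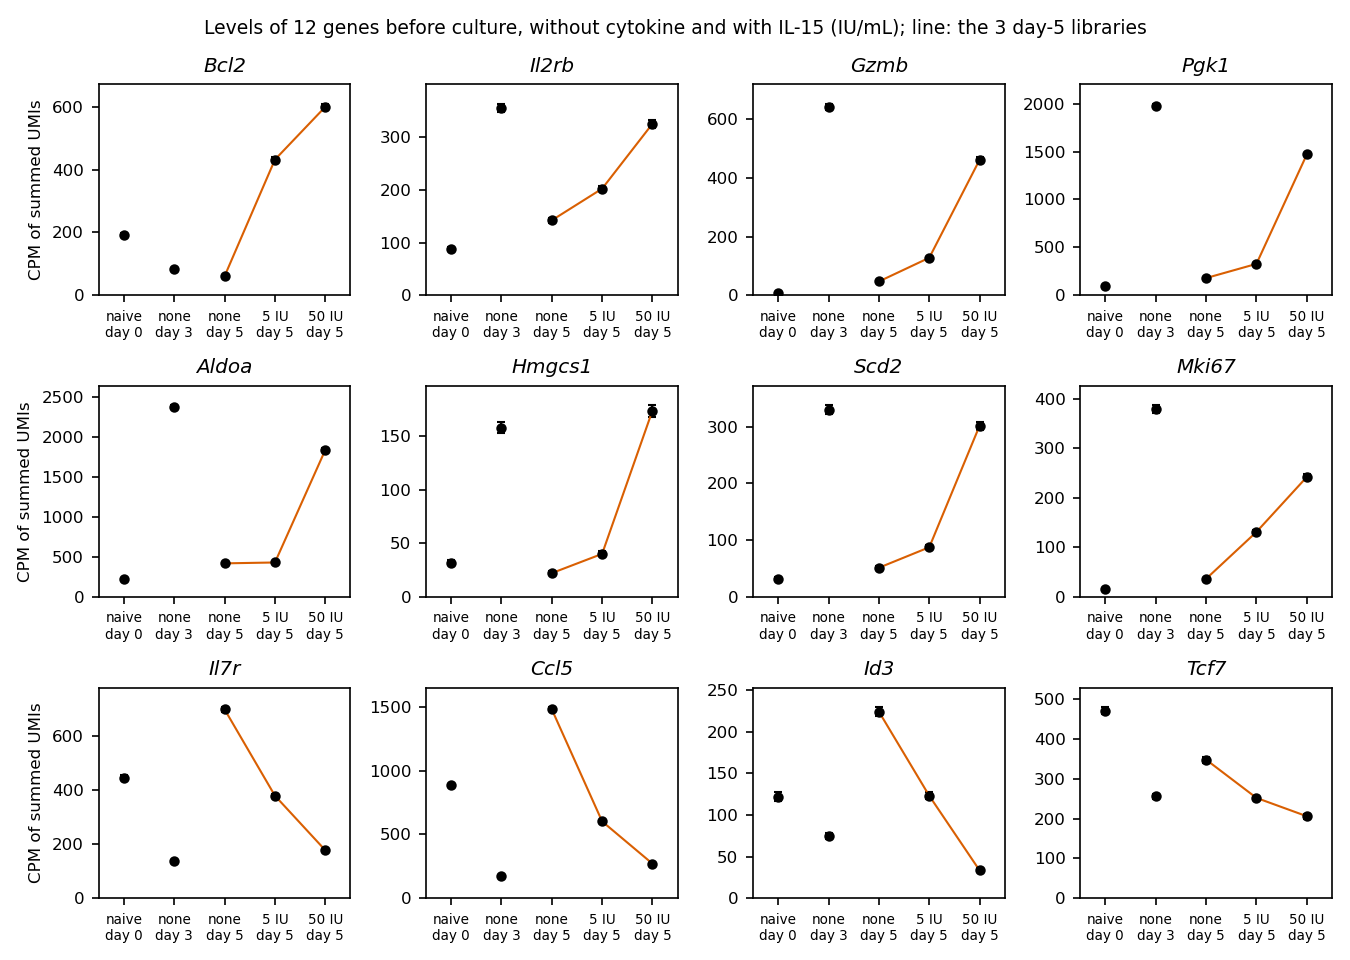
Level of 12 genes (y axis, CPM from 0) in naive cells, on day 3 without cytokine, and on day 5 without cytokine and with IL-15 at 5 and 50 IU/mL (x axis), 1 library per point, with exact Poisson 95% intervals for counting error and a line joining the 3 day 5 libraries. Bcl2 reaches 432 CPM at 5 IU/mL, while Aldoa stays at 430.2 there against 419.0 without cytokine.

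The same contrast on day 3, 2 days earlier and with its own control library, was smaller. It gave 47 of 5737 tested genes at least 2-fold higher (0.819%) and 15 lower (0.261%). TMM scaling gave 27 and 23, so the excess of higher genes depended on the scaling. Bcl2 already differed at 345 CPM with IL-15 and 84.0 without. Glycolysis and mitosis genes were high in both day 3 cultures. Pgk1 had 2119 with IL-15 and 1984 without, Mki67 362 and 379, and Gzmb 899 and 642. Cells with a Mki67 or Top2a UMI were 48.6% and 51.4%. From day 3 to day 5 Pgk1 went from 1984 to 179.6 without cytokine and from 2119 to 1469 with IL-15. Il7r went from 137 to 699.8 and from 102 to 178. The day 5 gap in these genes thus followed a larger change with time in the culture without cytokine than in the one with IL-15. Of the sterol list 5 of 30 were at least 2-fold higher with IL-15 on day 3 (median 0.69), among them Hmgcs1 at 332 and 158. Slc7a5 was at 93.7 and 25.2, and AA467197 at 24.8 and 13.8.

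IL-2 at 50 IU/mL on day 5, which signals through the same β and γ chains plus Il2ra, gave 3250 cells. Of the 21 libraries it had the fewest cells and UMIs and the lowest medians per cell. Its medians were 3016 UMIs and 1271 genes, against 3617 and 1349 with IL-15. Against this IL-2 library, 255 of 5946 tested genes were at least 2-fold higher with IL-15 (4.29%) and 476 lower (8.01%). TMM scaling gave 293 and 431, which kept the excess of lower genes. With totals that left out ribosomal protein and mitochondrially encoded genes they were 483 and 497 of 7445 tested, so the excess nearly vanished there. Sterol genes went both ways, with 3 of 30 at least 2-fold higher with IL-15, 3 lower, a median of 0.11 and a range from -1.91 (Scd1) to 1.55 (Fasn). Hmgcs1 was at 174 CPM with IL-15 and 159 with IL-2, and Bcl2 at 600.2 and 449. Glycolysis was lower with IL-15 for 22 of 30 genes (median -2.03), with Pgk1 at 1469 and 2820 and Aldoa at 1839 and 4381. Granule and effector genes were lower for 8 of 14, with Gzmb at 462 and 1689. Stemness and homing genes were higher with IL-15 for 9 of 17 (median 1.11), among them Tcf7 at 206 and 69.4 and S1pr1 at 326 and 79.1. AA467197 was higher with IL-15 (186 and 70.0), and Ndufa4 was at 138 and 118.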

How the data were processed

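The authors deposited, per library, a table of raw UMI counts per gene and cell (17516 genes, the same in each table). The submitters' processing notes name Cell Ranger, Seurat 3.0.2 and 4.0.1 and the build mm10, with no role for each; annotation, strand setting, cell filters and doublet removal are not given in the sources used here. A minimum of 1000 UMIs and 500 genes per cell and a ceiling of 10% mitochondrial UMIs were set on these counts, which removed none from either library, and no doublet caller was run. UMIs were summed per library and scaled to CPM, with a pseudocount of 1 and a minimum of 20 CPM in either library. Single-cell shares used cells thinned to 2000 UMIs. Intervals cover counting error only, as 1 library stood for each condition. The step was tested on simulated data with changes larger than 2-fold, planted in genes above the 20 CPM minimum, and counting noise only. Changes near 2-fold, genes near the minimum and spread between libraries were outside that test. Python 3.11.15, numpy 2.4.6, scipy 1.17.1 and pandas 2.3.3 were used, with edgeR 4.0.16 for TMM factors only. Gene names beyond the lists were the 10 largest differences in each direction and the 5 largest gains and losses in CPM. The ranking by difference took genes at 100 CPM or more in the higher library. The comparison and the 29 gene lists were chosen with earlier results of these data known. Depth ranged from 10589950 to 32648496 UMIs over the 21 libraries. Alternatives covered cell filters, scaling, pseudocount, expression filter, thinning and the definition of cycling cells. Exon overlaps and copies came from GENCODE vM21. Some list genes are not reported here.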

Additional observations from a re-analysis of the deposited data

How the results depend on the processing

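No paired analysis was possible because each condition had 1 library. The counts of genes at least 2-fold higher and lower were 330 and 108. With 10 as pseudocount they were 214 and 59, without the expression filter 832 and 182, and with totals that left out ribosomal protein and mitochondrially encoded genes the higher count was 514 of 7217 genes tested (7.12%). Smaller totals raise the CPM of every gene, so 7217 genes rather than 5673 reached the 20 CPM minimum. The median difference was 0.046 there and 0.007 as reported. How much of the rise in the higher count came from the added genes was not tested. TMM scaling gave 275 and 145, a median of -0.095, and a share of higher among called genes of 65.5% against 75.3%. In either direction, the counts as reported, with the larger pseudocount and without the filter were 129, 69 and 349 for 50 against 5 IU/mL, 62, 24 and 110 for day 3, and 731, 443 and 1665 for IL-15 against IL-2. The difference in the share of cells with a Mki67 or Top2a UMI was 11.1 percentage points. For cells with at least 3 mitosis list UMIs it was -13.1. In cells lacking Mki67 and Top2a, a choice that removes cycling transcripts by construction, the median over mitosis genes that passed the filter there was -0.45, and these reversed: Rrm1 -0.12, Rrm2 -0.34, Cdk1 -0.5, Ccnb1 -0.71, Cdc20 -0.26, Plk1 -0.01, Aurkb -0.3, Kif20b -0.82, Kif22 -0.23, Kif23 -0.51, Prc1 -0.41, Spc25 -0.19, Smc2 -1.43, Ncapd2 -0.39 and Cks1b -0.15. Of 156 named genes past 2-fold, 35 were under it with the larger pseudocount, Cish and Dusp5 among them, 11 under TMM scaling, and 51 in the cells lacking Mki67 and Top2a, where genes outside the cell cycle such as Psat1 (0.92), Acly (0.84), Acaca (0.67), Hk2 (0.80) and Nop56 (0.91) were among them. Depth limits low genes most: Scd1 without cytokine rests on 13 UMIs. Leaving out replicates was not run, as there were none.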

Other observations

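Cytoskeletal, S100, galectin and annexin genes held some of the larger gains outside the lists described above. Lgals3, which encodes galectin-3, was at 122 CPM with IL-15 and 19.5 without, Anxa2, an annexin, at 207 and 43.9, Vim, which encodes vimentin, at 960 and 274, and S100a4 at 211 and 69.8. They were the 4 of 22 tested genes of their list past 2-fold, against 5.82% of all tested genes that were higher, and the list's median was 0.45. Lgals3 passed the filter on low levels only through the IL-15 library. With IL-2 at 50 IU/mL on day 5 Lgals3 was at 448, Anxa2 at 677 and Vim at 2370.

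Cdk6, a kinase that works with D cyclins, was at 130 CPM with IL-15 and 27.3 without, while the D cyclins Ccnd2 (704 and 550) and Ccnd3 (167 and 185) stayed under 2-fold. Jun, a subunit of the AP-1 transcription factor, was at 88.3 and 32.6, and Nfkbia, the inhibitor of NF-κB, at 67.2 and 233. Mt1, a metallothionein, was at 57.6 with IL-15, 25.8 without cytokine and 761 with IL-2 at 50 IU/mL. Ltb, which encodes lymphotoxin β, was at 391 and 1820, and Slamf6, a receptor of stem-like CD8 cells, at 50.6 and 152.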
